A study of Mus musculus with 5 samples.

Results

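The genes described here are 10 interferon-induced antiviral effectors: Rsad2, Ifit1, Ifit2, Ifit3, Isg15, Usp18, Cxcl10, Ifi44, Rtp4 and Bst2. They were chosen by gene symbol, as 10 of the 55573 genes in the table of raw read counts. The selection rule itself used no measured value, but the set was put together with earlier results of these data known. The cells were N2A, a line of mouse neuroblastoma origin also called Neuro-2A, and their RNA was compared between cultures that received 60 pmol of a commercial control siRNA (siCtl) and cultures that received 60 pmol of Upf1 siRNA (siUpf1). UPF1 is a helicase that acts on RNA and is needed for nonsense-mediated mRNA decay (NMD), the pathway that degrades transcripts with a premature stop codon and some normal transcripts. The series holds replicates 1 and 3 of siCtl (n = 2) and replicates 1, 2 and 3 of siUpf1 (n = 3). All were sequenced as poly(A) RNA from 1 transiently transfected cell line. A siCtl replicate 2 is not among the samples, and the labels give no reason. The series has 1 siUpf1 group and every library came from transfected cells. An effect of less Upf1 and an effect of the siRNA's own sequence therefore cannot be told apart. Of the 10 effectors, 7 were lower in siUpf1 and none was higher, against 22.9% lower and 22.0% higher among all genes tested. The decrease ran from 6.14-fold for Rsad2 to 12.2% for Bst2, whose call was lost under some alternative analyses.

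Interferons are secreted proteins that cells make when they sense foreign RNA or DNA. Type I interferon binds the receptor IFNAR1/IFNAR2, the kinases JAK1 and TYK2 are activated, and a complex that holds STAT2 and IRF9 then binds the interferon-stimulated response element (ISRE) in promoters. IRF1, IRF3 and IRF7 recognize closely related sequences. The genes switched on in this way block viruses at many steps: the product of Rsad2 (viperin) makes a chain-terminating nucleotide, IFIT proteins bind foreign RNA, tetherin (Bst2) holds budding virus particles at the cell surface, ISG15 is a ubiquitin-like protein joined to other proteins, USP18 removes ISG15 and dampens signaling from the receptor, and CXCL10 is a chemokine that attracts T cells.

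The ISRE is the sequence that ties most of these genes together, so it was looked for in the window from 250 bases before to 50 bases after each gene's start (RefSeq, GRCm38.p6). Windows were found for 8 of the 10 genes, while Usp18 and Rtp4 had no entry. The core searched was GAAANNGAAA on both strands. It was present in 6 of the 8 genes, against 3.44% of the 32851 windows of all genes. The stretches that carry it are shown here, each 60 bases long and written 5′ to 3′ along the gene's own strand, with the core, or overlapping cores, in capitals (a core on the other strand reads as its reverse complement).
Rsad2, chr12:26456538-26456597, minus strand: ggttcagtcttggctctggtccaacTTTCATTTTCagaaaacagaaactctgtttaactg
Ifit1, chr19:34640770-34640829, plus strand: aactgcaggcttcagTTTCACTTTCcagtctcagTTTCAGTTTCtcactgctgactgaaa
Ifit3, chr19:34583365-34583424, plus strand: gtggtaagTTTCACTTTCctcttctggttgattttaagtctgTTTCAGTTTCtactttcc
Isg15, chr4:156200856-156200915, minus strand: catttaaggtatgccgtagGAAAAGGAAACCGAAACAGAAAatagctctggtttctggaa
Cxcl10, chr5:92349068-92349127, minus strand: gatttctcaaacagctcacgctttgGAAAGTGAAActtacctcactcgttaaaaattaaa
Bst2, chr8:71537565-71537624, minus strand: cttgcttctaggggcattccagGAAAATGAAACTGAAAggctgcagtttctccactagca

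The cores lay from 213 to 57 bases before the start. Isg15 had 3 overlapping cores (bases 78 to 57 before the start) and Bst2 had 2 (bases 130 to 115). Ifit1 and Ifit3 each had 2 separate cores, between bases 104 and 76 in Ifit1 and between bases 156 and 113 in Ifit3. Rsad2 and Cxcl10 had 1 each, at bases 120 to 111 and 213 to 204.

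The core was found neither in the 2 windows of Ifit2, which has 2 annotated starts, nor in that of Ifi44. The 120 bases before each of these starts are given for comparison with the stretches of Ifit1 and Ifit3, which lie beside Ifit2 on chromosome 19. They are in lower case throughout because no core was found in them.
Ifit2, first start, chr19:34550574-34550693, plus strand: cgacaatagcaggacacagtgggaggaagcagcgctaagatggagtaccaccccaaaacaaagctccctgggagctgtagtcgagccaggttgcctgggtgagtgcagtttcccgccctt
Ifit2, second start, chr19:34550968-34551087, plus strand: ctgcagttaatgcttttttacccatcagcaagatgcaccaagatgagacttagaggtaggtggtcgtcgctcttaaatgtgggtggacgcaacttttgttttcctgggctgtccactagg
Ifi44, chr3:151749911-151750030, minus strand: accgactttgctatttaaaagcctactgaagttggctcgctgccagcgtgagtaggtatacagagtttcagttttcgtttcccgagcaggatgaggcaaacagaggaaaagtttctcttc

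A gamma-activated sequence (GAS, TTCNNNGAA), an element of many genes that interferon gamma induces, was found in the windows of Ifit2 and Bst2, against 8.3% of all windows. The GAS of Bst2 overlapped its ISRE cores by 3 bases. A κB-like sequence (GGGANNNNCC), the kind that NF-κB binds, was found in Rsad2, Ifit2 and Cxcl10, with 2 in Cxcl10, against 20.7% of all windows. In Ifit2 the κB-like sequence and the GAS overlapped. These matches describe letters in a window, and binding was not measured.

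**Figure D1:**
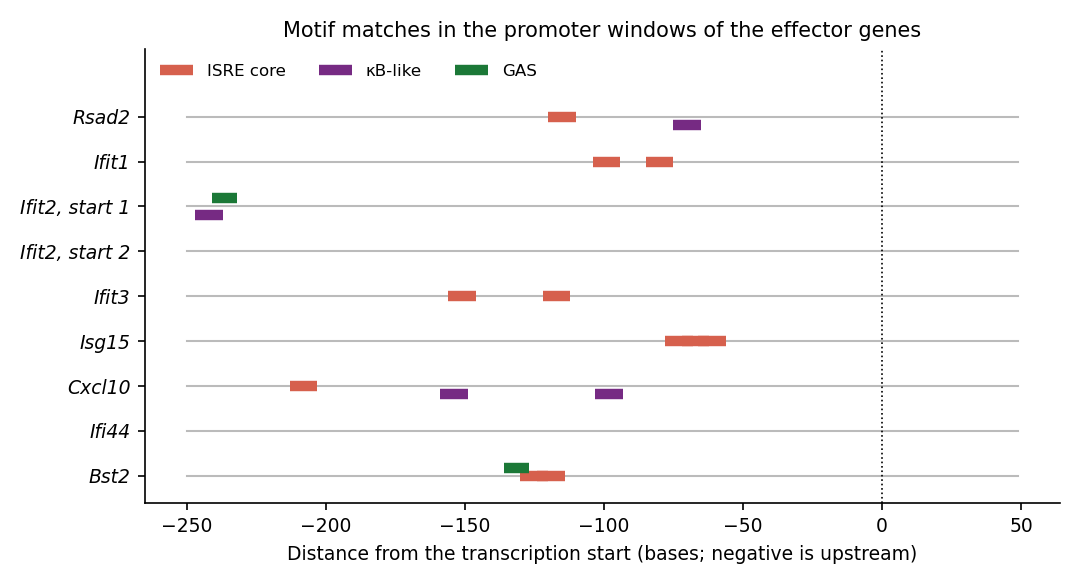
Positions of ISRE cores, κB-like sequences and GAS in the promoter windows of 8 effector genes. The horizontal axis gives bases from the annotated start (dotted line), each gray line is 1 window, and Ifit2 has 2 windows; the 6 genes with an ISRE core have it between 213 and 57 bases before the start, while the windows of Ifit2 and Ifi44 have none.

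Assigned reads per library ran from 20402205 to 27717594, and the number of genes detected from 21757 to 23215. Normalized read counts are counts divided by DESeq2's size factor of the library. Fold changes are on the log2 scale, siUpf1 relative to siCtl, each with the standard error (SE) that DESeq2 gave it. The threshold for calling a gene was an adjusted p-value of 0.05. The knockdown was examined first. Upf1 had 5217 and 5243 normalized read counts in siCtl and 2403, 2496 and 2449 in siUpf1, which left 46.8% of the siCtl level (log2 fold change −1.10, SE 0.0507, DESeq2 adjusted p = 7.09e-101). It is not said in the labels whether replicates came from separate cultures. The study describes western blots of the siRNA-treated cells used for its RNA-seq as independently performed experiments. It does not tie these experiments to single libraries, so p-values measure the spread between these libraries, which may be technical. In bulk RNA, fewer cells that express a gene and less of its RNA per cell cannot be told apart.

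All 10 effectors were abundant enough to be tested, among 15191 genes. Those called lower in siUpf1 were 7 of the 10, against 22.9% of all genes tested, and those called higher were 0 of 10, against 22.0%. edgeR called the same number in each direction, and no effector was higher at an unadjusted p under 0.05 either. In 7 of the 10 genes every siUpf1 library was lower than every siCtl library, against 35.2% of genes tested, and in the other 3 the groups overlapped. The median log2 fold change was −1.20 for the effectors and 0.00 for all genes tested. A called decrease to a log2 fold change of −1 or lower was found for 6 effectors, a size reached by 313 genes tested (2.06%).

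**Figure D2:**
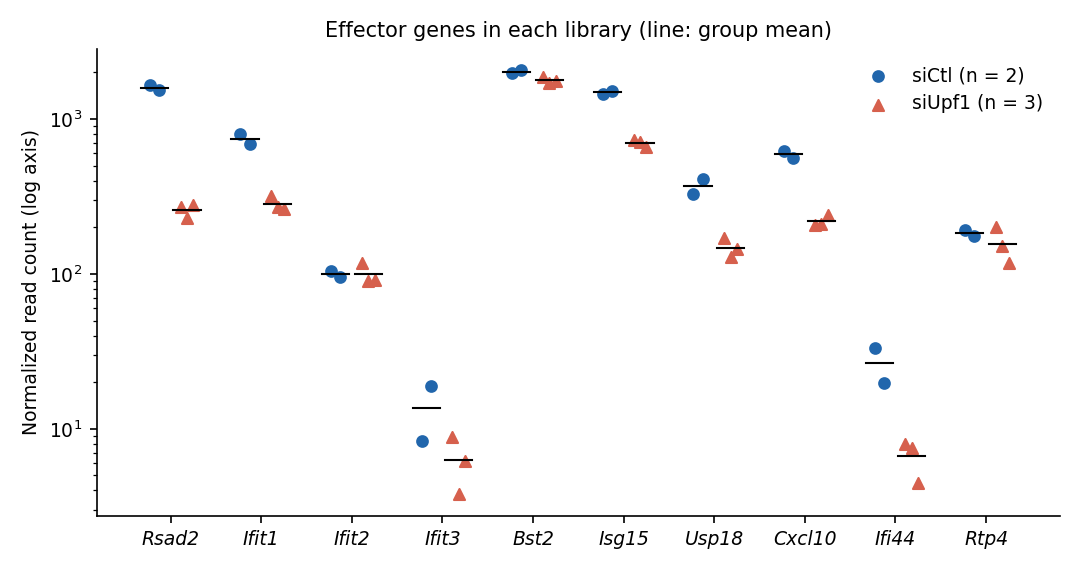
Normalized read count of each effector gene in each library (log axis). Circles are the 2 siCtl libraries, triangles the 3 siUpf1 libraries and short lines the group means; the groups are apart for Rsad2, Ifit1, Bst2, Isg15, Usp18, Cxcl10 and Ifi44, and overlap for Ifit2, Ifit3 and Rtp4.

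Rsad2 had the lowest log2 fold change of the 10 effectors. Rsad2 (ENSMUSG00000020641.16, chromosome 12, 26442746 to 26456452, minus strand, GRCm38) had 1649 and 1543 normalized read counts in siCtl replicates 1 and 3, and 272, 231 and 277 in siUpf1 replicates 1, 2 and 3. The 5 libraries formed 2 tight groups far apart. The means were 1596 ± 74.5 (SD, n = 2) and 260 ± 25.4 (SD, n = 3), so that 16.3% of the siCtl level remained. The log2 fold change was −2.61 with a 95% confidence interval from −2.81 to −2.41, and it was between −2.66 and −2.54 under every alternative. It was the 9th lowest of all 15191 genes tested. Among the effectors, Rsad2 is also the only gene with a transcript annotated as an NMD target (1 of its 3 transcripts), an annotation carried by 23.9% of genes tested. Which of the 3 transcripts the reads came from cannot be read from counts per gene.

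The 3 IFIT genes lie within 1 stretch of chromosome 19, in the order Ifit2, Ifit3 and Ifit1 on the plus strand, with 7111 bp between Ifit2 and Ifit3 and 52139 bp between Ifit3 and Ifit1. They did not move alike. Ifit1 (34640871 to 34650009), whose protein binds the cap of foreign RNA, had 796 and 691 normalized read counts in siCtl and 317, 269 and 264 in siUpf1. Its groups were well apart, with means of 743 ± 74.3 (SD, n = 2) and 283 ± 29.2 (SD, n = 3). The level in siUpf1 was 2.63-fold lower, a log2 fold change of −1.39 with an SE of 0.124 (DESeq2 adjusted p = 1.2e-27).

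Ifit2 (34550694 to 34576419) had 104 and 95.3 normalized read counts in siCtl and 117, 90.4 and 90.9 in siUpf1. The highest and the lowest library were both siUpf1 libraries, and the group means were 99.5 ± 6 (SD, n = 2) and 99.6 ± 15.4 (SD, n = 3). On the log2 scale the change of Ifit2 was 0.01 (SE 0.242, DESeq2 adjusted p = 0.987). Its 95% confidence interval ran from −0.47 to 0.48, and that of Ifit1, from −1.63 to −1.15, lay wholly below it. A test of the difference between the 2 genes was not made.

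Ifit3 (34583531 to 34588731), which binds and stabilizes IFIT1 in human cells, was near the limit of what could be tested. It had 8 and 20 raw reads in siCtl and 10, 3 and 7 in siUpf1, or 8.39 and 18.9 against 8.89, 3.77 and 6.24 normalized read counts. The groups overlapped, since siUpf1 replicate 1 was above siCtl replicate 1. The log2 fold change of −1.09 had a 95% confidence interval from −2.64 to 0.45 (DESeq2 adjusted p = 0.271), an interval that holds both no change and the decrease of Ifit1. Of the 100-base windows of Ifit3 mRNA, 31.7% occur identically in its copy Ifit3b, so reads from these windows could not be given to 1 of the pair. Ifit3b itself had 6 reads or fewer in every library. In Ifit1 only 3.29% of windows were shared, with Ifit1bl2, a related gene that also fell (log2 fold change −1.33, SE 0.443, DESeq2 adjusted p = 0.00758).

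Bst2 (chromosome 8, 71534255 to 71537456, minus strand), the gene for tetherin, had the smallest change of those called. It had 1986 and 2059 normalized read counts in siCtl and 1856, 1709 and 1763 in siUpf1. No siUpf1 library reached the lower siCtl library, but the gap between the groups was no larger than the spread among the siUpf1 libraries. The siUpf1 mean was 87.8% of the siCtl mean (log2 fold change −0.19, 95% confidence interval −0.31 to −0.06, DESeq2 adjusted p = 0.0116). This call held in 5 of 11 alternatives and was lost, with adjusted p-values from 0.0583 to 0.31, with total-count size factors, with the replicate number as a block, and without siCtl replicate 1, siCtl replicate 3, siUpf1 replicate 2 or siUpf1 replicate 3. Isg15, Rsad2, Ifit1, Usp18 and Cxcl10, by contrast, were called in all 11.

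Isg15 and Usp18 belong to 1 system, in which ISG15 is joined to proteins by the enzymes UBA7, UBE2L6 and HERC6 in turn and taken off by USP18. Isg15 (chromosome 4, 156199424 to 156200818, minus strand) had 1457 and 1518 normalized read counts in siCtl and 727, 709 and 661 in siUpf1. Within each group the libraries stood close together, and the groups were far apart. The mean fell from 1488 ± 43.1 (SD, n = 2) to 699 ± 34.2 (SD, n = 3), or to 47.0%. On the log2 scale this is −1.09 (SE 0.0822, DESeq2 adjusted p = 1.98e-38).

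Usp18 (chromosome 6, 121245906 to 121270917, plus strand) had 329 and 408 normalized read counts in siCtl and 170, 128 and 144 in siUpf1. The siCtl libraries differed more than in most other effectors, yet the highest siUpf1 library was still far below the lower siCtl library. The mean level in siUpf1 was 40.0% of that in siCtl (log2 fold change −1.31 with an SE of 0.171, DESeq2 adjusted p = 1.59e-13).

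The 3 conjugating enzymes were all lower as well. Uba7, which activates ISG15, had 241 and 264 normalized read counts in siCtl and 109, 77.8 and 103 in siUpf1 (log2 fold change −1.37, SE 0.197, DESeq2 adjusted p = 3.54e-11). Herc6, the ligase, had 423 and 440 against 224, 215 and 192 (log2 fold change −1.04). Ube2l6, which carries ISG15 between them, had 404 and 401 against 221, 232 and 169 (log2 fold change −0.96). Thus modifier, activating enzyme, carrier, ligase and protease all fell to between 38.3% and 51.6% of their siCtl levels, with no overlap between groups for any of the 5 genes. Of all genes tested, 22.9% were called lower, and in 35.2% every siUpf1 library was below every siCtl library.

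Cxcl10 (chromosome 5, 92346638 to 92348889, minus strand), the only secreted effector of the 10 besides free ISG15, had 625 and 564 normalized read counts in siCtl and 208, 210 and 239 in siUpf1. The groups were apart by more than the spread within either. The mean fell 2.72-fold, from 594 ± 42.8 (SD, n = 2) to 219 ± 17.4 (SD, n = 3). The log2 fold change of Cxcl10 was −1.44 (SE 0.131, DESeq2 adjusted p = 1.4e-26). Its neighbors Cxcl11 and Cxcl9, 10654 bp and 18558 bp away, encode chemokines for the same receptor, CXCR3, and had at most 5 reads in a library. Cxcr3 itself had at most 3 reads. Ccl5, a T-cell chemokine that both NF-κB and IRF factors drive, had 140 and 126 normalized read counts in siCtl and 17.8, 17.6 and 20.5 in siUpf1. That was 14.0% of the siCtl level, a larger decrease than in any of the 10 effectors (log2 fold change −2.84 with an SE of 0.323, DESeq2 adjusted p = 2.51e-17).

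The final pair of effectors has less well defined roles. Ifi44 (chromosome 3, 151730922 to 151749960, minus strand) was scarce, with 33.5 and 19.8 normalized read counts in siCtl and 8.0, 7.53 and 4.46 in siUpf1. Even the lower siCtl library was above all siUpf1 libraries. The log2 fold change of Ifi44 was −2.01, with a wide 95% confidence interval from −3.27 to −0.74 (DESeq2 adjusted p = 0.00536). An adjusted p was available in 7 of 11 alternatives and was under the threshold in all 7, the highest being 0.0488. Its neighbor Ifi44l, 8776 bp away, had 1 read in all 5 libraries together.

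Rtp4 (chromosome 16, 23520291 to 23614222, plus strand), which encodes a chaperone of G-protein-coupled receptors that interferon also induces, had 193 and 175 normalized read counts in siCtl and 201, 152 and 117 in siUpf1. The siUpf1 libraries spread more widely than the siCtl libraries and enclosed both. The log2 fold change was −0.23 with a 95% confidence interval from −0.65 to 0.2 (DESeq2 adjusted p = 0.421). An exon of the transcript Gm45338 overlaps Rtp4 on the same strand by 296 bases, and reads there could not be given to either gene.

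**Figure D3:**
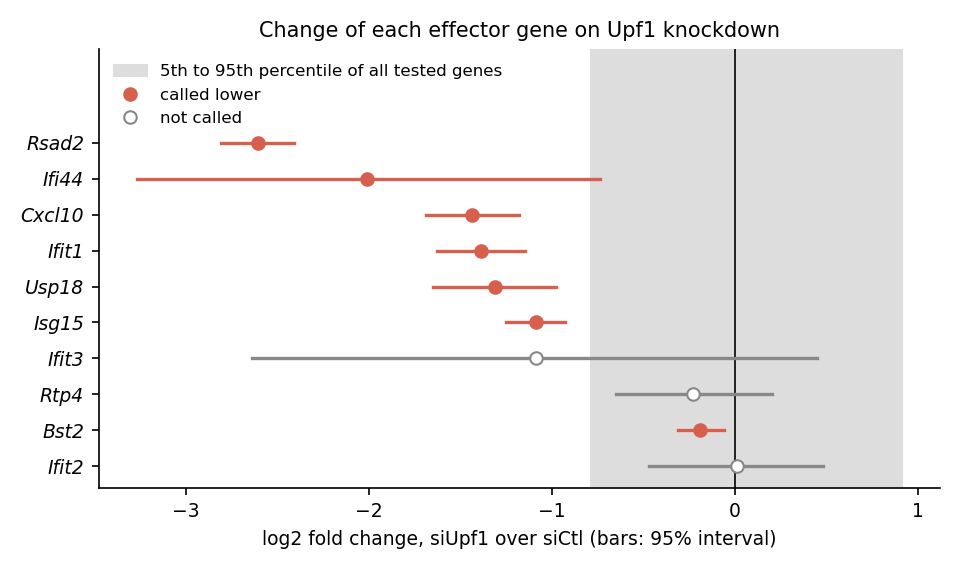
Log2 fold change of each effector gene, siUpf1 over siCtl, with its 95% confidence interval. Filled points were called lower and open points were not called; the gray band, from −0.79 to 0.91, holds all but the lowest 5% and the highest 5% of genes tested, and Rsad2, Ifi44, Cxcl10, Ifit1, Usp18 and Isg15 lie to its left among the called genes.

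Levels of different genes can be compared only per length, so counts were also expressed per kilobase of annotated exon and per 1000000 assigned reads. On this scale the effectors spanned a wide range in siCtl cells, from 88.8 for Bst2 and 78.0 for Isg15 down to 0.31 for Ifit3 and 0.172 for Ifi44. Between these lay Rsad2 at 14.6, Ifit1 at 11.1, Cxcl10 at 10.5, Usp18 at 5.24, Rtp4 at 3.42 and Ifit2 at 1.0. Neighbors in this order were apart in both siCtl libraries except Ifit1 with Cxcl10 and Ifit3 with Ifi44.

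In siUpf1 cells Bst2 (79.2) and Isg15 (37.2) were still the highest, with the distance between them widened. Rsad2 moved from rank 3 to rank 6 at 2.42, below Ifit1 (4.29), Cxcl10 (3.91) and Rtp4 (2.96). The ranges of Ifit1 and Cxcl10, Cxcl10 and Rtp4, Rtp4 and Rsad2, and Rsad2 and Usp18 overlapped, so neighbors in this middle group did not differ beyond their spread. Ifit2 (1.02), Ifit3 (0.146) and Ifi44 (0.0437) stayed at the bottom in that order.

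Summed over the 10 genes, the normalized read counts were 7180 and 7091 in siCtl and 3885, 3509 and 3567 in siUpf1. The makeup of that sum shifted. Bst2 made up 27.7% and 29.0% of it in siCtl and from 47.8% to 49.4% in siUpf1. Rsad2 went from 23.0% and 21.8% to between 6.58% and 7.77%. The share of Isg15 moved less, being 20.3% and 21.4% in siCtl and from 18.5% to 20.2% in siUpf1.

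The rest of the pathway was read from lists of genes by role. Of the interferon genes themselves, 19 of 21 had no read in any library, and the others, Ifnab and Ifnz, had 13 reads in all, so none could be tested. Of the receptors, JAK kinases, STATs and IRFs, 16 of 18 were tested, of which 8 were lower, 1 was higher and 7 were not called, with a median log2 fold change of −0.26 (of all genes tested, 22.9% were lower and 22.0% higher). The number called lower was 4 without siCtl replicate 3 and 5 with the replicate block. Genes of factors that act at the ISRE or related sequences were among those lower. Their binding to the promoters shown above was not measured, and their part in the decrease of the effectors was not tested. Stat2 had 3106 and 3271 normalized read counts in siCtl and 1923, 2018 and 1996 in siUpf1 (log2 fold change −0.69, DESeq2 adjusted p = 2.72e-30). Irf1, an activator of ISRE genes, fell by 0.74 on the log2 scale. Irf7, the factor that amplifies interferon production, fell by 0.66 and Irf2, a factor that competes with IRF1, by 0.63. The receptor gene Ifnar1 was the higher one (log2 fold change 0.21, DESeq2 adjusted p = 0.0207), a call made in 5 of 11 alternatives.

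Of the sensors and adaptors, 15 of 18 were tested, of which 11 were lower, 1 was higher and 3 were not called (median −0.41). The shares among all genes tested were 22.9% lower and 22.0% higher. Without siCtl replicate 1, without siUpf1 replicate 3 or with the replicate block, 7 were called lower. The cytoplasmic RNA sensors Dhx58 (log2 fold change −1.36), Ifih1 (−1.16) and Rigi (−0.90) and the endosomal RNA sensor Tlr3 (−1.08) changed most among those with at least 50 counts. Rigi had 1205 normalized read counts on average in siCtl and 646 in siUpf1. The adaptor Traf3 was higher, at 1308 and 1952 (log2 fold change 0.58, DESeq2 adjusted p = 5.87e-15).

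Other interferon-induced antiviral genes moved as most of the 10 effectors did. Of 41 listed, 37 were tested, of which 31 were lower, 6 were not called and 0 were higher by either DESeq2 or edgeR, with a median log2 fold change of −0.80. Among all genes tested, DESeq2 called 22.9% lower and 22.0% higher. No gene of this list was higher at an unadjusted p under 0.05 in DESeq2's test. The lowest log2 fold change of the list was that of Oas3, one of the enzymes that make the activator of RNase L, which had 40.3 normalized read counts on average in siCtl and 2.56 in siUpf1 (log2 fold change −4.09 with an SE of 0.743, DESeq2 adjusted p = 2.25e-07). The largest decreases at a mean of 50 counts or more were those of Sp100 (log2 fold change −1.65), a nuclear body protein, Oasl1 (−1.35) and Oasl2 (−1.27), relatives of the same enzymes, and Xaf1 (−1.21), a pro-apoptotic protein. Of 12 genes induced mainly by interferon gamma, 7 were tested and all 7 were lower (median −0.82), against 22.9% of all genes tested. Among the 7 were the GTPases Gbp3 (−1.06), Igtp (−0.86), Gbp7 (−0.82) and Irgm2 (−0.66). With the replicate number as a block 3 of the 7 were called, and without siCtl replicate 3 it was 4.

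Inhibitors of interferon signaling, the group to which Usp18 also belongs by function, numbered 8, all tested, of which 4 were lower, 1 was higher and 3 were not called (median −0.43), against 22.9% lower and 22.0% higher among all genes. Without siCtl replicate 1 or with the replicate block, 2 were called lower. Socs3 fell by 1.24 on the log2 scale, Socs1 by 0.73 and the phosphatase gene Ptpn2 by 0.44, while Ptpn1 rose (log2 fold change 0.33, DESeq2 adjusted p = 6.14e-06). Of 15 NF-κB target genes tested, 5 were lower, 3 were higher and 7 were not called (median −0.33), shares not far from those of all genes. Without siCtl replicate 3 or with the replicate block, 3 were called lower. Beside Ccl5, which was lower, the inflammatory genes Cxcl1 (log2 fold change 0.99), Il6 (0.85) and Tnfaip3 (0.72) were higher. Among paralogs and neighbors of the effectors 3 of 11 were tested and 2 were lower, Ifit1bl2 and Cmpk2. That number was 1 without siCtl replicate 1, siCtl replicate 3 or siUpf1 replicate 3 and with the replicate block. Cmpk2, a kinase that supplies the nucleotide viperin acts on and lies 12751 bp from Rsad2 on the opposite strand, had 550 and 586 normalized read counts in siCtl and 430, 325 and 353 in siUpf1. It was lower (log2 fold change −0.62, 95% confidence interval −0.87 to −0.36, DESeq2 adjusted p = 8.05e-06), and this interval did not meet that of Rsad2.

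The ISRE core was counted in the promoter windows of the same lists. It was present in 13 of 29 other interferon-induced genes, 8 of 10 genes induced mainly by interferon gamma and 4 of 14 sensors and adaptors. It was present in 2 of 16 signaling genes, 0 of 12 NF-κB targets and 0 of 3 conjugating enzymes of ISG15. Of the interferon genes, which had almost no reads, 11 of 20 had it. So did 3 of 9 paralogs and neighbors and 1 of 6 inhibitors of signaling. Over all windows the share was 3.44%. Uba7, Ube2l6 and Herc6, all lower, thus had no core in this window. Among the effectors, Bst2 had 2 cores and the smallest decrease called. Ifi44 had no exact match and the second lowest log2 fold change, which rests on 9, 6 and 5 raw reads in siUpf1. Near matches of the core were not counted, and a link between the core and the size of a decrease was not tested.

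**Figure D4:**
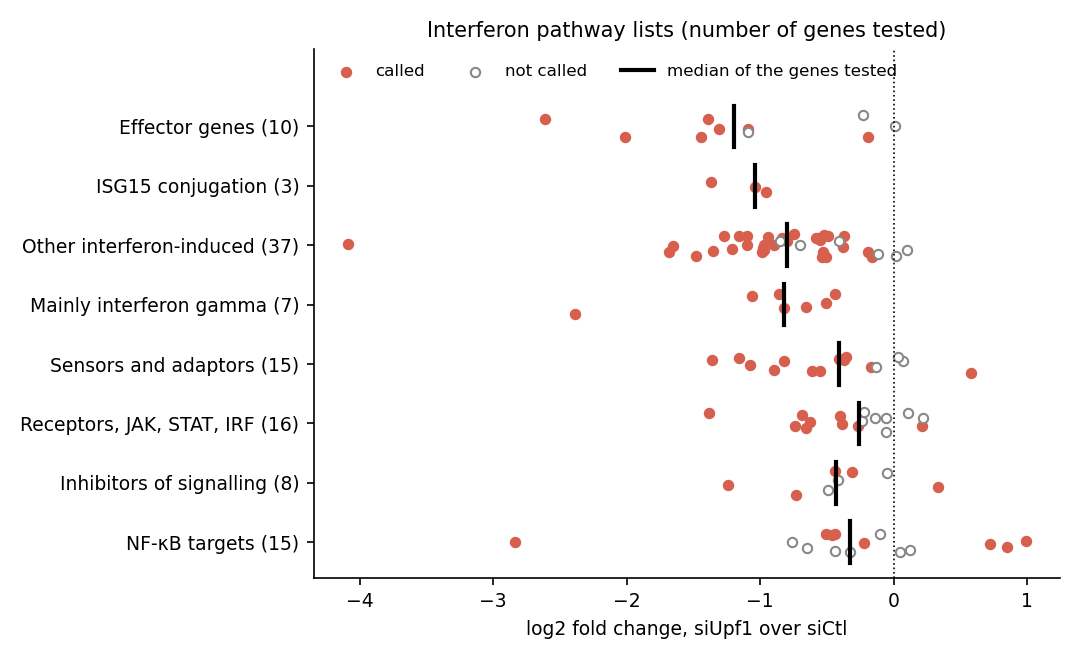
Log2 fold changes, siUpf1 over siCtl, of the genes tested in each interferon pathway list, with the number tested in brackets. Filled points were called in either direction, open points were not called and the black bar is the median of the list, which runs from −1.20 for the effector genes to −0.26 for receptors, JAK kinases, STATs and IRFs; the dotted line marks no change.

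Markers of the cell types were checked in the same libraries. Of 15 sympathoadrenal and neuronal markers of N2A cells, all had reads, with Hand2, Gata2, Tubb3 and Chga abundant (Chga had 5012 normalized read counts on average in siCtl) and Nefm near 0. Of these 13 were tested, 8 were higher and 2 were lower, 0 to 2 under the alternatives (median log2 fold change 0.45), and their summed counts rose from between 47916 and 48122 to between 55598 and 58238. Among all genes tested, 22.0% were higher and 22.9% lower. The 8 macrophage and microglia markers summed to 49.3 and 52.8 normalized read counts in siCtl and 49.9 to 62.8 in siUpf1, with 0 of 2 tested called by DESeq2, 0 at an unadjusted p under 0.05 and 1 called higher by edgeR, while Ptprc, Itgam, Adgre1, Aif1 and Csf1r were near 0. Fibroblast markers summed to 288 to 306 in siCtl and 223 to 258 in siUpf1, with Col3a1 and Lum at 0 throughout, and endothelial markers to 274 to 277 and 225 to 235, with Kdr and Emcn at 0. Of the fibroblast markers, Pdgfra was called lower (log2 fold change −0.47, in 5 of 11 alternatives). Of the endothelial markers, Pecam1 was called lower (−0.78, in 11 of 11) and Tek higher (0.73, in 5 of 11). The part of these shifts in the decrease of the effectors was not tested.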

How the data were processed

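RNA-seq counts were analysed from 5 N2A libraries, 2 siCtl and 3 siUpf1, grouped by their labels. The authors deposited raw counts of reads for each gene. They trimmed strand-specific, single-end reads with fastp, mapped them to GRCm38.p6 with STAR and used featureCounts in its reverse-stranded mode over exons. Nothing was normalized or pooled before deposit. All 55573 genes entered a DESeq2 fit (version 1.42.0 in R 4.3.3) in which siUpf1 was set against siCtl by the Wald test, with no other term. Size factors were medians of ratios, filtering was DESeq2's own, and p-values were adjusted by Benjamini-Hochberg over all genes tested. The study's methods name DESeq2 and the adjusted p threshold of 0.05, and the other settings are DESeq2's defaults. The scripts were tested on simulated data.

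An exact permutation test over these 5 libraries cannot give p under 0.1 and was not used. Alternatives were edgeR's quasi-likelihood test (version 4.0.16), TMM or total-count size factors, a minimum of 10 counts in 2 libraries, no filter, a block for the replicate number, and fits without 1 library. Every pair of replicates differed by more than sampling noise (chi-square per degree of freedom at least 5.65).

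Positions and exon lengths came from GENCODE M21 on the same build, in which 99.8% of gene identifiers were found. Intervals are 1.96 SE either side. The effector genes and the pathway lists were chosen with earlier results of these data known, so no p-value is given for a list. Named from each list were up to 4 called genes with the largest change among those with a mean of at least 50 normalized counts, and any gene needed to read an effector. Ifnar1, Traf3, Oas3 and Ifit1bl2 were named after their values were seen.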

Additional observations from a re-analysis of the deposited data

How the results depend on the processing

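Isg15, Rsad2, Ifit1, Usp18, Cxcl10 and Upf1 kept their direction and their call under all 11 alternatives, and no alternative called an effector higher. The number of effectors called lower was 7, and between 5 and 7 under the alternatives. With one library left out it was 5 to 6, and the median log2 fold change of the effectors was between −1.41 (without siUpf1 replicate 1) and −1.11 (without siCtl replicate 3), against −1.20 with all libraries. Bst2 lost its call with total-count size factors (log2 fold change −0.16) and with the replicate block (−0.16), and, with a library left out, at values from −0.22 to −0.16. Ifit2, which was not called, changed sign with TMM size factors (0.00, adjusted p = 0.995, just below 0) and without siCtl replicate 3 (−0.06) or siUpf1 replicate 1 (−0.13), the values without 1 library running from −0.13 to 0.07. The fold change of Ifi44 was −1.58 without siCtl replicate 1 and that of Ifit3 −0.4 without siCtl replicate 3. The cause of these shifts was not tested.

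When replicate number was added as a block, 1962 genes were called lower and 1957 higher, against 3481 and 3341 without it, and 5 effectors. It is not said in the labels whether the numbers pair the samples. Deviations from the group means correlated at −0.0861 between the libraries numbered 1 and −0.0748 between those numbered 3. With 2 siCtl libraries the deviations of one mirror those of the other, so these correlations cannot settle whether libraries were paired. siUpf1 replicate 2 has no siCtl partner. The median over all genes moved by at most 0.02 under any setting. Depth limits Ifit3 and Ifi44, and the spread of the controls rests on 2 siCtl libraries.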
